A study of Mus musculus with 60 samples.

Results

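The collagens and laminins of mouse cortical cultures were taken from a table of TPM (transcript abundance corrected for gene length, with an equal total per library) as every symbol spelled Col, number, a, number or as Lama, Lamb, or Lamc and a number. Of 39756 symbols, 55 fit this spelling, 44 collagens and 11 laminins. The 30 whose mean over 48 libraries reached 1 TPM, 26 collagens and 4 laminins, passed the filter on low values and entered the tests, and the other 25 did not.

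RNA was sequenced from 48 wild-type (WT) libraries labelled cortical neuron of the cerebral cortex, of which 46 came from primary cultures prepared at E18. At 2 days in vitro (DIV2) these cultures were given either paxillin siRNA (2 pooled) or scrambled (SC) siRNA, with or without brain-derived neurotrophic factor (BDNF, a growth factor for neurons) at 20 ng/ml. Without BDNF, there were 3 SC and 5 paxillin siRNA libraries at DIV3, 4 and 6 at DIV5, and 3 and 4 at DIV10. With BDNF, these groups held 3 and 4, 4 and 5, and 3 and 2 libraries, and 2 further libraries were labelled E15 and carry the same note on preparation at E18. Each culture library carries a culture number, and all libraries of cultures 10 and 11 received paxillin siRNA. Whether libraries of 1 culture number share embryos is not stated, so p-values measure only the spread between these libraries.

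Collagens are triple helices of alpha chains. The fibrillar types I, III, and V build the tough fibrils of connective tissue, which in the brain lie mainly in the meninges and around vessels. Type IV forms the network of basement membranes, the thin sheets beneath endothelium and at the surface of the brain, and laminins, each built of an alpha, a beta, and a gamma chain, form a second network in the same sheets and bind integrins. Paxillin is an adaptor protein of focal adhesions, the sites where integrins that hold such matrix are tied to actin.

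Every library summed to 1000000 TPM, so the values give no depth and no counting error, and between 20878 and 23585 genes per library were above 0. The collagens and laminins took 0.0157% to 0.0590% of all TPM in a library. All 8 neuronal markers averaged 1 TPM or more in SC siRNA cultures of each day, but the cultures also held glial markers, and the summed neuronal level went from 3442 to 4589 TPM at DIV3 to 1306 to 2192 TPM at DIV10 while the astrocyte sum went from 326 to 954 to 1687 to 8659. Within the neuronal list, mean Tubb3 went from 2601 to 648 TPM, Dcx from 367 to 98.2, Stmn2 from 266 to 189, and Map2 from 142 to 136. Snap25 went from 29.4 to 58.5, Syt1 from 16.4 to 39.5, Rbfox3 from 6.81 to 8.26, and Nefl from 602 to 627. The endothelial sum was 451 and 509 TPM in the E15 libraries and 4.84 to 5.85 at DIV3 with SC siRNA. The mRNA of Pxn, the target of the siRNA, was 12.4 to 19.9 TPM with SC and 8.43 to 9.83 with paxillin siRNA at DIV5 without BDNF. At DIV3 (9.16 to 11.7 and 7.79 to 11.4 TPM) and at DIV10 (8.99 to 19.9 and 11.5 to 18.8 TPM) these ranges overlapped, so at those days the mRNA does not separate the labels. With BDNF the ranges overlapped at each day, DIV5 included (SC 10.04 to 18.99 and paxillin siRNA 8.74 to 13.8 TPM). There they were 7.98 to 12.3 and 10.01 to 11.8 TPM at DIV3, and 9.82 to 15.9 and 10.9 to 12.5 at DIV10. At DIV10 4 libraries stood apart in these markers, SC siRNA culture 3, paxillin siRNA cultures 1 and 2, and culture 3 with SC siRNA and BDNF. Their astrocyte sums were 1121 to 2021 TPM against 4496 to 9100 in the other 8 libraries of that day, and their fibroblast and meningeal sums 40.1 to 71.4 against 473 to 2796. The genes of the latter list were unequal, since Islr spanned 20.4 to 2407 TPM over the SC siRNA libraries of DIV10 and Foxc1 1.43 to 2.08. Neuronal sums of the 4 were 527 to 1634 TPM against 1809 to 2476, and microglial sums 170 to 256 against 430 to 1623. Mural sums were 27.3 to 58.2 against 68.4 to 127, and radial glia and progenitor sums 464 to 697 against 792 to 1183. Endothelial sums overlapped (3.64 to 10.1 and 8.12 to 13.6). Whether these libraries differ as a whole or in certain cells was not tested. Results of DIV10 are also given without the 4 libraries that stood apart, an alternative chosen after the data were seen. In bulk RNA, fewer cells of a type and less RNA per cell cannot be told apart.

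**Figure D1:**
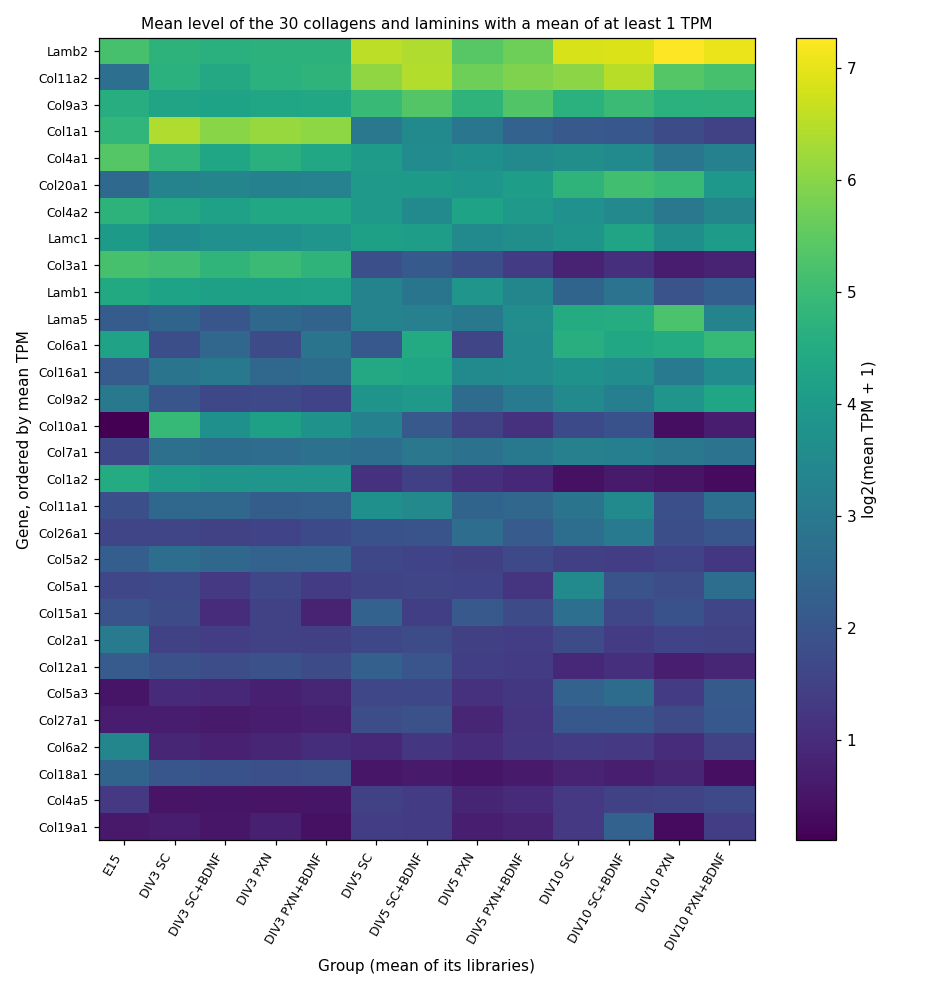
Mean level of each of the 30 tested genes (vertical axis, ordered by mean TPM) in each of 13 groups (horizontal axis), coloured by log2(mean TPM + 1). Lamb2 is brightest at DIV10, Col1a1, Col1a2, and Col3a1 are brighter at DIV3 than at DIV5 and DIV10, and Col10a1 is darkest at E15.

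Lamb2, the laminin beta2 chain found in basement membranes of vessels, glia, and synapses, had the highest mean of the 55 at 67.4 TPM. Col11a2, a chain of the minor fibrillar type XI, followed at 47.4 TPM. Col9a3, a chain of type IX that decorates the surface of fibrils, had 26.6 TPM, and Col1a1, the main chain of type I, had 26.5 TPM. These levels were unequal between libraries, since Col1a1 spanned 0.742 to 182 TPM and Lamc1, the common laminin gamma1 chain, only 8.67 to 22.8. The chains just above the limit were Col4a5 (1.12 TPM) and Col19a1 (1.04 TPM), and those just below were Col6a3 (0.987), Lama4 (0.926), Lama1 (0.925), and Col9a1 (0.901). Of the 5 laminin alpha chains, which carry the main sites for integrins, Lama5 alone passed the limit, at 11.1 TPM. The lowest was Col6a6 at a mean of 0.0197 TPM, with 1 library at 0.

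The 55 genes lie on 17 chromosomes of GRCm38.p6. Col4a1 and Col4a2, the 2 main chains of type IV, are read in opposite directions on chromosome 8 from starts 21 bases apart in the GENCODE annotation, and their first exons share 22 bases. In all, 9 of the 30 share exon bases with another gene, 6 of them with a gene of the opposite strand, and whether reads were assigned by strand is not given in the sources used here. For Col9a3 the shared stretch with Tcfl5 is 234 bases, so reads there cannot be given to one of the pair without strand.

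Promoters from RefSeq (GRCm38.p6) are shown for chains that changed between days, to place the genes beside their levels. The table held a window for 23 of the 30 genes. The stretches are written 5′ to 3′ on the strand of the gene, ending before the first annotated exon base, and capitals mark matches to 3 motifs, each searched on both strands. The first motif was CCAAT. The second, known as the TATA box, was spelled TATAAA. The third, a site of GC boxes, was spelled GGGCGG, and matches of different motifs did not overlap in these stretches. Col3a1 (chr1:45311288-45311537, plus strand) and Col10a1 (chr10:34389731-34389980, plus strand) fell from DIV3 to DIV10 in the SC siRNA cultures, as did Lamb1 (chr12:31265043-31265145, plus strand). Lamb2 (chr9:108479612-108479735, plus strand) and Col6a1 (chr10:76726169-76726294, minus strand) rose there, and Lama5 (chr2:180225905-180226109, minus strand) rose in 2 of 4 arms.
Col3a1: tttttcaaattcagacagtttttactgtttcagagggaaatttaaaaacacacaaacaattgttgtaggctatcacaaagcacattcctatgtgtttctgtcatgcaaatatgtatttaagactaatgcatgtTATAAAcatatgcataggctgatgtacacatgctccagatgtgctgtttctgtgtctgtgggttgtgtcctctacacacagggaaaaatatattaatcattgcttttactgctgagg
Col10a1: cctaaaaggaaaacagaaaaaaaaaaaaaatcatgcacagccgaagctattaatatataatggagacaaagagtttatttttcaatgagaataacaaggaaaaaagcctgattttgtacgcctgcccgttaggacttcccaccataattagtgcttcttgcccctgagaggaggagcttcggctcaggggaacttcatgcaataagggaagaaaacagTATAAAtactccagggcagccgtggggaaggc
Lamb1: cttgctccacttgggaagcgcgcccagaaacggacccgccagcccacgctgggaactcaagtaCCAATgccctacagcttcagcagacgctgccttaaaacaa
Lamb2: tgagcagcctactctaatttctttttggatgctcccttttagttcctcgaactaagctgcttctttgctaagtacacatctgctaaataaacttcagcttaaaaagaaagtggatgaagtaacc
Col6a1: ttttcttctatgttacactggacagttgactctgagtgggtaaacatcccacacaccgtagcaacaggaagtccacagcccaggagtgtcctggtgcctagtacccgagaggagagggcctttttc
Lama5: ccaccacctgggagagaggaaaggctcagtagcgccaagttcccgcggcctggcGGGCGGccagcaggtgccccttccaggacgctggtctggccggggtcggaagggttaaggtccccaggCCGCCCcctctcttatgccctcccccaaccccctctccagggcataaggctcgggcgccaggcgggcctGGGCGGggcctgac

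TATAAA began 32 bases before the start site of Col10a1 and 117 before that of Col3a1. The stretch of Lamb1 held CCAAT, that of Lama5 held GGGCGG 3 times, counting 1 match on the other strand, and the stretches of Lamb2 and Col6a1 held no match. The stretches of Lamb1, Lamb2, and Col6a1 end 148, 127, and 125 bases before the start site, and that of Lama5 ends 46 before it. The bases nearer the start site are not shown, so these stretches do not tell which motifs the whole windows hold. The shares that follow are of whole windows. Over all 32851 windows of 250 bases, 33.8% held CCAAT, 12.4% TATAAA, and 32.7% GGGCGG. Of the 25 windows of the 23 collagens and laminins, 10 (40%), 3 (12%), and 16 (64%) did. A match describes these letters and no binding was measured.

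How the matrix genes changed over days in culture was examined from DIV3 to DIV10 in each of the 4 arms (SC or paxillin siRNA, each with or without BDNF) by limma on log2(TPM + 1) over 14250 genes, with an adjusted p under 0.05 as the threshold. In the SC siRNA arm, the fibrillar chains Col1a1, Col1a2, Col3a1, and Col5a2, the laminin chain Lamb1, and Col4a1, Col10a1, Col12a1, and Col18a1 fell. Lamb2, Col6a1, Col9a2, Col11a2, Col20a1, Col26a1, Col27a1, Col4a5, and Col5a1 rose. Thus 9 of 30 rose, against 16.1% of all genes tested, and 9 fell, against 19.1%. The median log2 difference of the 30 was 0.42, and that of all genes tested was -0.04.

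Col1a1 stood at 162, 21.6, and 67.1 TPM in the SC siRNA libraries of DIV3, at 3.89, 8.92, 12.6, and 1.99 at DIV5, and at 1.72, 6.38, and 1.87 at DIV10. Every DIV3 library was above every DIV10 library, and the 3 DIV3 libraries were far apart among themselves. The log2 difference was -4.03 ± 0.97 (SE, adjusted p = 0.00132 by limma, n = 3 and 3). Col3a1, the chain of type III that mixes with type I in soft tissue, was at 54.4, 9.80, and 32.9 TPM at DIV3 and at 0.751, 1.19, and 0.249 at DIV10 in these libraries. Its groups did not overlap, and the difference was -4.02 ± 0.84 on the log2 scale (limma, adjusted p = 0.000287). Col1a2, the second chain of type I, went from a mean of 15.4 to 0.339 TPM, a log2 difference of -3.17 ± 0.84.

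Over all 4 arms, Col1a1 lay at 14.7 to 182 TPM (median 42.8) in the 15 DIV3 libraries and at 0.757 to 6.38 (median 2.09) in the 12 DIV10 libraries. Col3a1 lay at 9.53 to 66.2 TPM (median 21.5) and at 0.220 to 1.82 (median 0.688). No DIV10 library of any arm reached the lowest DIV3 library for either gene. The lowest DIV3 values with paxillin siRNA alone came from culture 11, at 14.7 TPM for Col1a1.

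**Figure D2:**
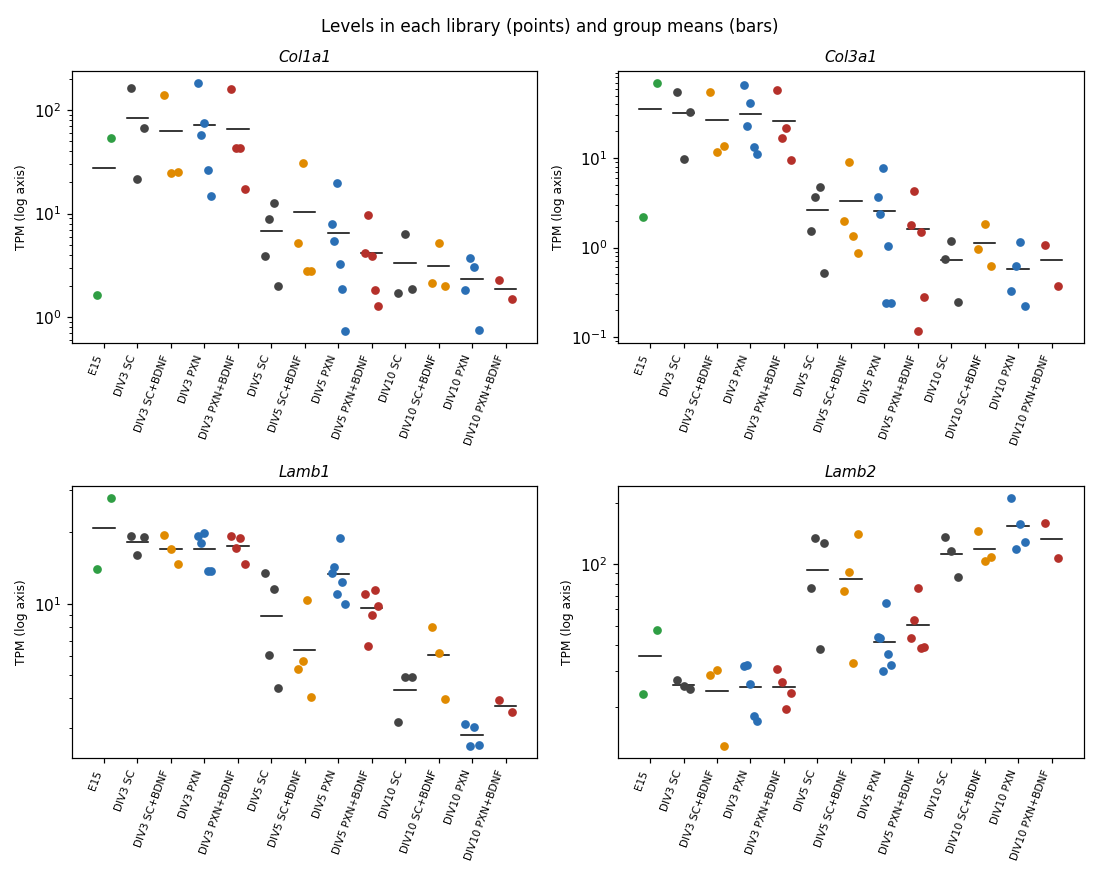
TPM on a log axis of Col1a1, Col3a1, Lamb1, and Lamb2 in every library (points, coloured by treatment) with group means (bars), for E15 and the 4 arms at DIV3, DIV5, and DIV10. Both fibrillar chains and Lamb1 are lower at DIV10 than at DIV3 in each arm, Lamb2 is higher, and the E15 libraries of Col1a1 stand at 1.64 and 53.3 TPM.

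The laminin beta chains moved in opposite directions. Lamb1, the beta1 chain of the laminins of early development, stood at 19.3, 16.0, and 19.02 TPM at DIV3 with SC siRNA, at 13.5, 6.07, 11.5, and 4.43 at DIV5, and at 3.19, 4.91, and 4.91 at DIV10. Its DIV3 libraries lay close together and above those of DIV10, with a log2 difference of -1.85 ± 0.28 (limma, adjusted p = 4.46e-06). Lamb2 stood at 27.3, 25.3, and 24.4 TPM at DIV3, at 76.3, 134, 38.4, and 127 at DIV5, and at 135, 116, and 86.4 at DIV10. All DIV10 libraries were above all DIV3 libraries, with a log2 difference of 2.07 ± 0.40 (limma, adjusted p = 0.000107). Over the 4 arms Lamb2 spanned 12.9 to 32.2 TPM at DIV3 and 86.4 to 210 at DIV10. Lamc1, the partner of both, was at 10.5, 9.32, and 13.5 TPM at DIV3 and 17.3, 12.1, and 9.46 at DIV10 with SC siRNA, and passed in none of the 4 arms.

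Lama5, the alpha5 chain of mature basement membranes, was uneven at DIV10. It stood at 4.01, 3.00, and 5.97 TPM in the SC siRNA libraries of DIV3 and at 10.8, 48.02, and 6.67 at DIV10, and missed the threshold (log2 difference 1.66 ± 0.67, limma, adjusted p = 0.0515). With paxillin siRNA it rose by a log2 difference of 2.15 ± 0.55 (limma, adjusted p = 0.00125), with 89.0 and 42.9 TPM in cultures 1 and 2 and 8.43 and 7.16 in cultures 10 and 11 at DIV10. With SC siRNA and BDNF it also rose (2.40 ± 0.67), to 19.3, 12.3, and 35.6 TPM. The 4 libraries that stood apart in markers at DIV10 were the 4 highest for Lama5 in all arms, at 35.6 to 89.0 TPM. Their oligodendrocyte sums were 243 to 1421 TPM, against 3815 to 8580 in the other 8, beside the sums of the other lists given above. Without these 4, Lama5 missed the threshold with paxillin siRNA (0.73, limma, adjusted p = 0.245) and with SC siRNA (0.87, adjusted p = 0.211) and rose with SC siRNA and BDNF (2.01, adjusted p = 0.00332). The part of the cells these markers stand for was not tested.

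Among chains that do not build large fibrils, Col6a1, a chain of the beaded filaments of type VI, rose in the SC siRNA arm. It stood at 3.01, 1.17, and 3.35 TPM at DIV3, at 1.55, 3.52, 3.65, and 4.01 at DIV5, and at 19.5, 19.7, and 31.6 at DIV10, a log2 difference from DIV3 to DIV10 of 2.84 ± 0.71 (limma, adjusted p = 0.00206). All DIV10 libraries lay above both earlier days. Its partner Col6a2 did not pass in any arm, with log2 differences of 0.17 to 0.54. Col11a2 was at 18.7, 21.4, and 33.4 TPM at DIV3, 57.4, 95.9, 44.6, and 68.2 at DIV5, and 74.7, 86.5, and 31.7 at DIV10, so the DIV3 and DIV10 groups overlapped although it passed (1.28 ± 0.41). Col9a3 was at 21.8, 19.9, and 13.7 TPM at DIV3 and 29.4, 33.3, and 11.7 at DIV10 and passed in no comparison.

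Of the type IV chains, Col4a1 was at 28.5, 12.7, and 40.2 TPM at DIV3 with SC siRNA, at 21.2, 16.9, 12.6, and 11.3 at DIV5, and at 8.71, 11.9, and 13.97 at DIV10. It fell by 1.05 on the log2 scale with overlapping groups, and Col4a2 passed in the 2 paxillin siRNA arms, where it fell by 1.32 and 1.02. The difference between paxillin siRNA and SC siRNA in the change of Col4a2, tested without BDNF, was -0.66 ± 0.43 (SE, limma, adjusted p = 0.601). Col4a5, an X-linked chain of a second type IV network, rose in all 4 arms from means of 0.390 to 0.429 TPM to 1.45 to 2.21 TPM. Col10a1, a short chain best known from growth plate cartilage, was at 62.9, 16.1, and 7.84 TPM at DIV3 and 5.99, 0.153, and 0.742 at DIV10 with SC siRNA (log2 difference -3.14 ± 0.77).

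With paxillin siRNA, 7 of 30 rose (21.9% of all genes) and 9 fell (32.4%). With SC siRNA and BDNF, 11 rose (17.9%) and 6 fell (22.4%). With paxillin siRNA and BDNF, 7 rose (16.2%) and 8 fell (16.5%). The medians of the 30 were 0.16, 0.67, and 0.47 on the log2 scale, against -0.11, -0.07, and -0.07 for all genes. The shift of all genes with paxillin siRNA, -0.1088, became 0.0261 after rescaling by median ratios, and the split was then 8 higher and 9 lower.

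In all 4 arms, Col1a1 (-4.09 to -3.55), Col3a1 (-4.07 to -3.39), Col1a2 (-3.17 to -2.70), Lamb1 (-2.23 to -1.39), and Col18a1 (-1.41 to -0.95) fell, and 5 genes rose. The risers were Lamb2 (2.07 to 2.58), Col6a1 (1.88 to 2.84), Col9a2 (1.62 to 2.89), Col27a1 (1.06 to 1.42), and Col4a5 (0.79 to 1.16). Another 7 rose and 5 fell in 1 to 3 arms, 8 passed in no arm, and 0 passed in opposite directions. Of all 14250 genes, 9.65% rose and 9.84% fell in all 4 arms, 19.5% rose and 28.4% fell in 1 to 3 arms, 32.4% passed in no arm, and 0.302% passed in opposite directions. Without the 4 libraries that stood apart at DIV10, 17, 15, 17, and 16 of the 30 passed with SC siRNA, paxillin siRNA, SC siRNA and BDNF, and both (42.1%, 45.98%, 49.1%, and 41.0% of all genes), of which 14, 13, 14, and 15 also passed with them. Then Col9a2 missed the threshold in both SC siRNA arms (1.58 and 1.61), and Col6a1 did with SC siRNA and BDNF (1.52). Col9a2, a chain of type IX, stood at 6.35, 4.29, 21.1, and 21.3 TPM in cultures 1, 2, 10, and 11 at DIV10 with paxillin siRNA. Without cultures 10 and 11 the rise of Col9a2 in that arm was 0.65 (limma, adjusted p = 0.443) and that of Col6a1 was 0.27 (adjusted p = 0.785), so those 2 calls rest on these cultures. That fit leaves only cultures 1 and 2 at DIV10 in this arm, and both are among the 4 libraries that stood apart. At DIV10 with paxillin siRNA and BDNF only cultures 10 and 11 were measured, and leaving out culture 10 or 11 there left 7 and 8 of the 15 genes called.

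**Figure D3:**
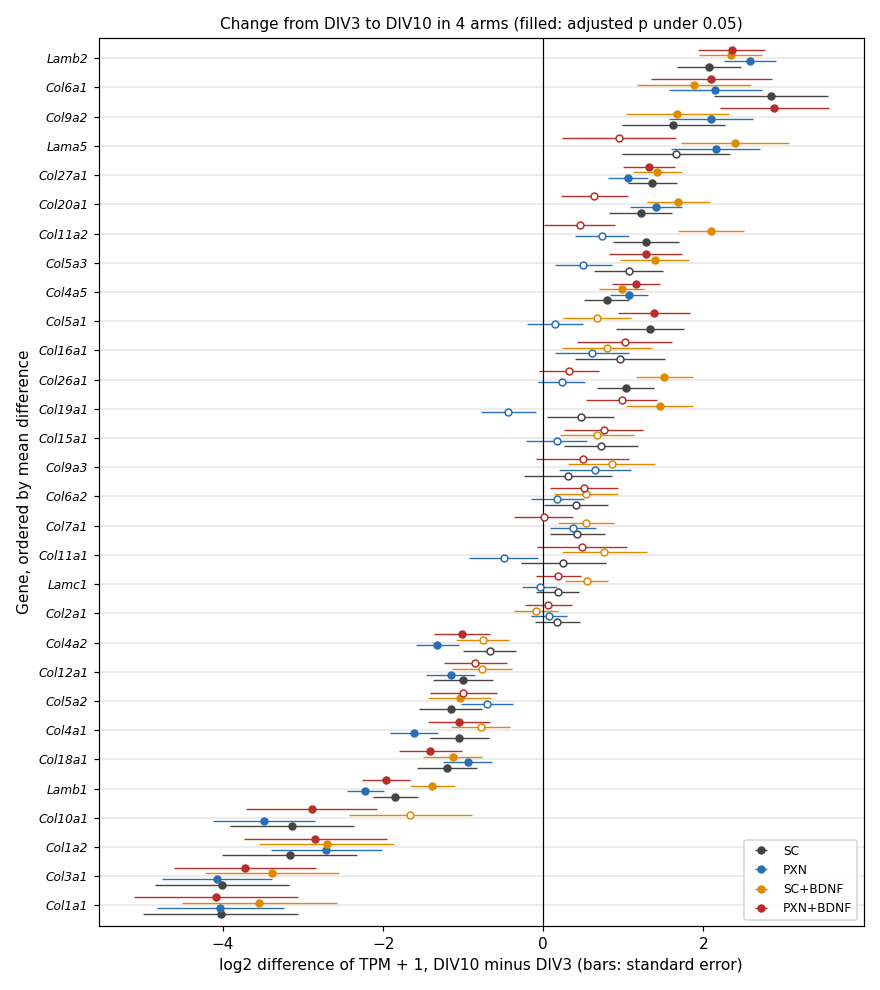
Log2 difference of TPM + 1 from DIV3 to DIV10 (horizontal axis, bars show the standard error) for the 30 tested genes (vertical axis) in 4 arms, with filled points for an adjusted p under 0.05. Col1a1 and Col3a1 lie at -4.09 to -3.39 and Lamb2 at 2.07 to 2.58.

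The difference between the siRNAs in this change was tested as an interaction without BDNF. Of the 30, 0 passed with limma (0.00702% of all genes), and 1 had an unadjusted p under 0.05, against 9.10% of all genes. Without the 4 libraries that stood apart, 0 of the 30 passed (0.0702% of all genes).

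Signs of other cells moved over the same days. Of the fibroblast and meningeal list of 12 genes, 7 were at a mean of 1 TPM or more at DIV3 and 8 at DIV10 with SC siRNA, and the sums were 135 to 242 and 59.5 to 2796 TPM. Foxc1, a regulator of the meninges, went from a mean of 9.99 to 1.65 TPM and Foxd1 from 3.72 to 0.110. Mgp went from 10.2 to 1.18 TPM and Ogn from 3.51 to 2.17. Pdgfra went from 59.6 to 133 TPM, Igfbp2 from 61.4 to 69.4, Fmod from 0.723 to 4.03, and Dcn from 0.584 to 1.07. Mean Islr went from 41.6 to 900 TPM and reached 2407 TPM in 1 DIV10 library. Lum averaged under 1 TPM at both days. Slc6a13 and Aldh1a2 were at 0.0211 TPM or less in every one of these libraries. The sums of the mural list, named for cells around vessels, were 49.6 to 91.4 and 58.2 to 106 TPM, but its genes were unequal. Which cells these sums came from was not tested. With SC siRNA, mean Rgs5 went from 12.03 TPM at DIV3 to 0.547 at DIV10 and Vtn from 11.5 to 0.681. Acta2 went from 16.1 to 1.39 TPM and Kcnj8 from 2.25 to 0.179. Cspg4 went from 18.6 to 48.9 TPM, Pdgfrb from 6.42 to 14.4, and Notch3 from 8.72 to 10.2. The other mural genes averaged under 1 TPM at both days. The endothelial sums were 4.84 to 5.85 and 7.90 to 12.8 TPM, and the genes of this list were unequal too. Mean Egfl7 went from 2.47 to 7.89 TPM, Cldn5 from 0.542 to 1.18, and Esam from 1.69 to 0.727. The other endothelial genes averaged under 1 TPM at both days. Microglial sums went from 35.3 to 51.3 to 170 to 971 TPM. The part of these cells in the changes of the collagens and laminins was not tested.

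The genes that process these chains and those that bind them were read against the shares of all genes given above. Of 24 tested of 29 genes of collagen biosynthesis, 3 rose and 2 fell from DIV3 to DIV10 with SC siRNA, where 16.1% of all genes rose and 19.1% fell, and the median of the 24 was 0.10. Lox, which cross-links collagen fibrils, fell from a mean of 16.3 to 2.02 TPM (-2.35), and Plod1, a lysyl hydroxylase, rose from 7.03 to 25.0 TPM (1.65). Loxl3 rose by 1.28 and P4ha1, a prolyl hydroxylase, by 1.05. The counts were 6 and 5 with paxillin siRNA (21.9% and 32.4% of all genes), 7 and 0 with SC siRNA and BDNF (17.9% and 22.4%), and 4 and 2 with both (16.2% and 16.5%). Of 21 tested of 25 partners and receptors of basement membranes, 7 rose and 2 fell with SC siRNA, beside the same 16.1% and 19.1% of all genes, with a median of 0.29. The counts for this list were 7 and 4 with paxillin siRNA (21.9% and 32.4% of all genes), 8 and 2 with SC siRNA and BDNF (17.9% and 22.4%), and 6 and 2 with both (16.2% and 16.5%). Fn1 (fibronectin) fell from 61.6 to 6.59 TPM (-3.10), and Sparc, which binds collagen, rose from 56.2 to 381 TPM (2.78). Itga7, an integrin chain for laminin, rose from 2.34 to 15.01 TPM (2.04), and Timp3, an inhibitor of matrix proteases, from 13.7 to 42.7 TPM (1.58).

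Between DIV3 and DIV5 with SC siRNA, 4 of 30 rose (7.99% of all genes) and 5 fell (1.48%). Lamb2 (1.68 ± 0.37), Col11a2 (1.39 ± 0.39), Col27a1 (1.01 ± 0.29), and Col4a5 (0.91 ± 0.27) rose. Col1a1 (-3.24 ± 0.90), Col3a1 (-3.10 ± 0.78), Col1a2 (-2.49 ± 0.79), Col18a1 (-1.39 ± 0.35), and Lamb1 (-1.06 ± 0.26) fell. The median was 0.29 for the 30 and 0.11 for all genes, and the latter became -0.01 after rescaling. The 9 calls became 3 without DIV3 culture 1 or DIV5 culture 4 and 5 without DIV3 culture 3 or DIV5 culture 2. In a fit of only the 2 groups compared, 0 of the 30 and 0 of all genes passed.

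With paxillin siRNA over the same days, 1 of 30 rose (3.92%) and 5 fell (1.65%). The riser, Col26a1, lay at 1.33 to 2.61 TPM in the 5 DIV3 libraries and at 7.87, 7.33, 3.41, 7.05, 3.45, and 2.93 in the 6 of DIV5, and the groups did not overlap (log2 difference 1.05 ± 0.26, limma, adjusted p = 0.0137). Col1a1 (-3.24), Col3a1 (-3.24), Col10a1 (-2.40), Col1a2 (-2.22), and Col18a1 (-1.25) fell. In a fit blocked by culture number, which paired these libraries, 11 of the 30 passed, against 14.8% of all genes, Lamb2 among them (0.56, limma, adjusted p = 0.0446). Without cultures 10 and 11, 3 of the 30 passed, against 1.07% of all genes. Both arms share no libraries, and their difference was not tested for DIV5.

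The E15 libraries were compared with the SC siRNA cultures of DIV3. Here 2 of 30 were higher at DIV3 (4.63% of all genes) and 2 lower (3.48%), with medians of 0.05 and -0.01. Col10a1 was at 0.115 and 0.0278 TPM at E15 and at 62.9, 16.1, and 7.84 at DIV3 (4.31 ± 0.86, limma, adjusted p = 0.00166). Col11a2 was at 5.39 and 5.84 TPM at E15 and rose by 1.90 ± 0.46. Col6a2 was at 1.48 and 17.6 TPM at E15 and at 1.18, 0.557, and 0.729 at DIV3 (-1.91 ± 0.45). Col2a1, the chain of cartilage and embryonic neuroepithelium, was at 4.75 and 9.91 TPM at E15 and at 1.35, 1.41, and 2.75 at DIV3 (-1.52 ± 0.31).

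The E15 libraries stood far apart in Col1a1, Col3a1, and the type VI chain Col6a1. Col1a1 was at 1.64 and 53.3 TPM, Col3a1 at 2.19 and 69.01, and Col6a1 at 0.743 and 34.9, always higher in replicate 2. The fibrillar chains of type XI lay closer together, with Col11a2 at 5.39 and 5.84 TPM and Col11a1 at 2.12 and 3.15. Its mural sum was 411 TPM against 160 in replicate 1 and its fibroblast and meningeal sum 356 against 117. The part of these cells was not tested, and without replicate 2 no gene of the 30 passed. Endothelial genes were present at E15, with Cldn5, a junction gene of vessels, at 381 and 385 TPM, and near 0 at DIV3 (0.373 to 0.857 TPM). Col4a1 was at 23.8 and 57.9 TPM at E15 and Col4a2 at 15.2 and 35.5, and neither passed against DIV3.

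Whether paxillin siRNA altered the matrix genes was tested at each day against SC siRNA. At DIV5 without BDNF, 0 of 30 rose (0.8% of all genes) and 2 fell (5.38%), Lamb2 and Col27a1. Lamb2 stood at 76.3, 134, 38.4, and 127 TPM with SC siRNA and at 44.2, 43.5, 30.1, 64.3, 36.4, and 32.2 with paxillin siRNA. The groups overlapped through SC culture 3, and all 4 cultures measured with both siRNAs were lower with paxillin siRNA. The log2 difference was -1.04 ± 0.31 (limma, adjusted p = 0.0413). Col27a1, a fibrillar chain of cartilage, was at 1.99, 3.55, 0.706, and 3.70 TPM with SC siRNA and at 0.625, 0.775, 0.787, 1.02, 0.971, and 0.871 with paxillin siRNA (-0.82 ± 0.24, limma, adjusted p = 0.0386). SC culture 3 again overlapped, and 3 of 4 cultures were lower. Among the 30, Lamc1, Col5a3, and Col4a5 were, like Lamb2, lower with paxillin siRNA in 4 of 4 cultures. Col4a2, Col7a1, and Col26a1 were higher in 4 of 4. The share of all genes with such counts was not taken. The median of the 30 was -0.31, and that of all genes was -0.08.

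These calls at DIV5 moved with the fit. In a fit blocked by culture number, which paired the libraries, 10 of the 30 passed (2 higher and 8 lower, against 6.46% and 16.2% of all genes), Lamb2 at -0.89 (limma, adjusted p = 0.00308) and Col27a1 at -0.86 (adjusted p = 0.00311). The others lower in that fit were Col10a1, Col11a1, Col12a1, Col19a1, Col4a5, and Lamc1, and Col26a1 (0.85) and Lamb1 (0.66) were higher. Lamc1 stood at 15.3, 21.5, 10.95, and 20.6 TPM with SC siRNA and at 9.80, 9.98, 8.999, 12.4, 11.6, and 8.67 with paxillin siRNA, lower in 4 of 4 cultures. After rescaling by median ratios 0 passed, with Lamb2 at -0.94 (adjusted p = 0.0804). Without cultures 10 and 11, 0 passed (5.54% of all genes), and without SC culture 3 alone 9 passed. Leaving out paxillin siRNA culture 1, 2, 3, or 10 or SC culture 2 or 4 left 0, leaving out paxillin siRNA culture 11 or SC culture 1 left 1, and leaving out paxillin siRNA culture 4 left 2. The numbers in the library names were split here into series, and what a series stands for is not known. All SC siRNA libraries of DIV5 without BDNF fall in 1 of these series. In it only cultures 3 and 4 carry paxillin siRNA (Lamb2 30.1 and 64.3 TPM, beside 38.4 and 127 with SC siRNA). A term for these series gave 7 of the 30, against 21.2% of all genes, with Lamb2 at -1.02 (limma, adjusted p = 0.0283) and Col27a1 at -0.97 (adjusted p = 0.0106). Within that series alone, an alternative chosen after the data were seen, 0 of the 30 and 0 of all genes passed, with Lamb2 at -0.92 (adjusted p = 0.630) and Col27a1 at -0.77 (adjusted p = 0.621).

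Marker sums of glia and progenitors also differed between these groups. All 9 astrocyte genes averaged 1 TPM or more in both groups, and their sum was 1407 to 8688 TPM with SC siRNA and 1149 to 2060 with paxillin siRNA, while neuronal sums were 1551 to 3356 and 2451 to 3826. The sum of 8 radial glia and dividing progenitor genes was 1166 to 1944 TPM with SC and 736 to 1011 with paxillin siRNA, without overlap. Mean Sox2 of that list was 1087 TPM with SC and 505 with paxillin siRNA. Pax6 was at 16.2 and 10.9, Hes5 at 166 and 137, and Eomes at 4.53 and 4.30. Mki67 was at 131 and 111, Top2a at 64.7 and 59.0, Ccnb1 at 38.1 and 36.7, and Cdk1 at 8.92 and 9.31. Oligodendrocyte sums were 1577 to 5311 and 1213 to 2166 TPM, and fibroblast and meningeal sums 144 to 723 and 130 to 314. Of the latter list, Islr (means 356 and 101 TPM), Pdgfra (147 and 93.1), Ogn (2.91 and 0.643), and Foxc1 (1.57 and 0.959) were lower with paxillin siRNA. Igfbp2 (22.3 and 33.3) and Mgp (0.625 and 1.07) were higher, and the others averaged under 1 TPM in both groups. The part of the cells these markers stand for in the lower Lamb2 and Col27a1 was not tested.

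**Figure D4:**
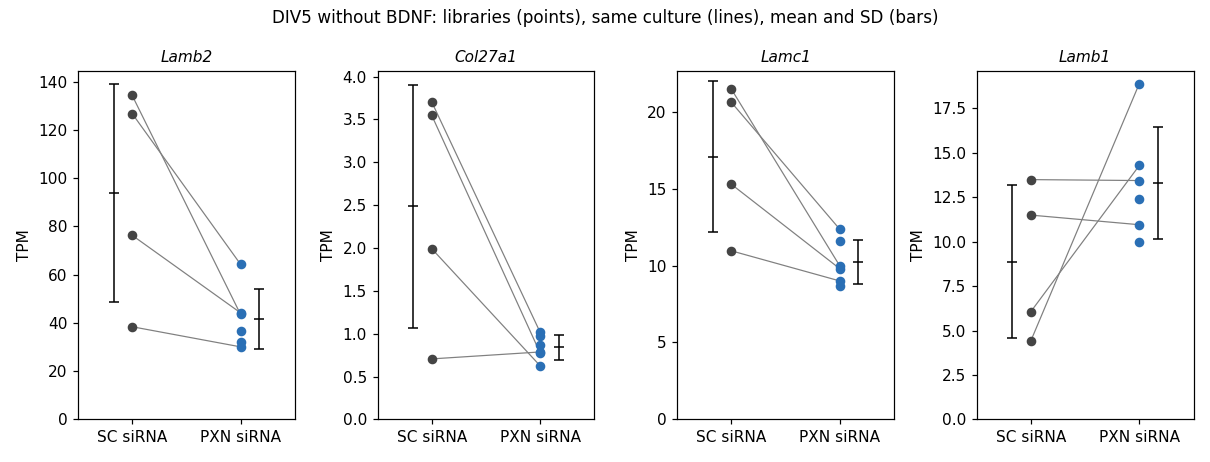
TPM of Lamb2, Col27a1, Lamc1, and Lamb1 at DIV5 without BDNF (vertical axis from 0) in SC and paxillin (PXN) siRNA libraries (points), with lines joining libraries of 1 culture number and bars for mean and SD. Lamb2 and Lamc1 go down along all 4 lines, and Col27a1 along 3 of 4.

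At the other days and with BDNF, 0 of the 30 passed for paxillin siRNA against SC siRNA with limma. At DIV3, 0% of all genes passed without BDNF and 0% with it, and 0 of the 30 had an unadjusted p under 0.05 in either, against 0.147% and 1.61% of all genes. At DIV10 without BDNF 2.58% of all genes passed, and 7 of the 30 had an unadjusted p under 0.05, all lower, where 25.0% of all genes had such a p and 16.3% were lower with it. They were led by Col5a1 at a mean of 10.5 TPM with SC and 2.46 with paxillin siRNA (-1.27 ± 0.40, adjusted p = 0.0620). Cultures 10 and 11 stood apart from cultures 1 and 2 within that paxillin siRNA group, and without them 8 of the 30 passed, against 36.9% of all genes, with Lama5 higher (1.94, adjusted p = 0.00689) and Col6a1 lower (-2.31, adjusted p = 0.0153). Col6a1 was at 3.95 and 3.76 TPM in cultures 1 and 2 and at 36.9 and 42.4 in cultures 10 and 11. In the same libraries the oligodendrocyte sums were 243 and 1025 against 3815 and 5044 TPM, the astrocyte sums 1689 and 1121 against 7895 and 9100, the neuronal sums 527 and 841 against 2156 and 1809, and the fibroblast and meningeal sums 42.3 and 40.1 against 510 and 473. The part of these cells in the values was not tested. Without the 4 libraries that stood apart, which leaves cultures 10 and 11 against SC cultures 1 and 6, 0 of the 30 passed (0.365% of all genes), with Lama5 at -0.11 (limma, adjusted p = 0.958) and Col6a1 at 0.65 (adjusted p = 0.758). Without SC culture 3, 3 passed, and without paxillin siRNA culture 10 or 11, 1 passed. With BDNF, 0.596% of all genes passed at DIV5 and 0.0211% at DIV10, and 3 of the 30 had an unadjusted p under 0.05 at each, against 18.7% and 7.18% of all genes. At DIV10 with BDNF and without SC culture 3, which stood apart, 1 of the 30 passed (3.53% of all genes), Col19a1 at -1.39 (limma, adjusted p = 0.0221). At DIV5 with BDNF, leaving out SC culture 3 made 3 pass.

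Whether BDNF altered the matrix genes was tested at each day within each siRNA, using the same libraries without BDNF as the siRNA comparisons. Of the 30, 0 passed with limma in any of the 6 comparisons. With SC siRNA, 1.21% of all genes passed at DIV3, 0.0491% at DIV5, and 0% at DIV10, and 0, 2, and 1 of the 30 had an unadjusted p under 0.05, against 10.3%, 8.90%, and 2.47% of all genes. With paxillin siRNA these shares were 2.14%, 0.014%, and 0.014%, and the unadjusted counts were 0, 2, and 2, against 12.4%, 6.88%, and 18.02%. Without the libraries that stood apart at DIV10, 0 of the 30 passed there with either siRNA.

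Col6a1 was chosen for description after its values were seen. At DIV5 with SC siRNA it stood at 1.55, 3.52, 3.65, and 4.01 TPM without BDNF and at 18.9, 15.6, 41.3, and 9.06 with BDNF. The groups did not overlap, and each of the 4 cultures was higher with BDNF, but the difference of 2.26 ± 0.62 missed the threshold over all genes (limma, adjusted p = 0.188). With paxillin siRNA it was at 2.05, 1.57, 3.45, 1.43, 2.41, and 1.08 TPM without BDNF and at 6.79, 21.1, 4.41, 14.02, and 7.70 with BDNF. Again no library overlapped and 5 of 5 cultures were higher, with a difference of 1.84 ± 0.53 (limma, adjusted p = 0.310). Such counts were not particular to Col6a1. Col9a3 was also higher with BDNF in 4 of 4 and 5 of 5 cultures, and Lamb1 was lower in 4 of 4 and 5 of 5. The share of all genes with such counts was not taken. In a fit blocked by culture number, which paired the libraries in both, Col6a1 passed with SC siRNA (2.26, adjusted p = 0.0144) and with paxillin siRNA (1.93, adjusted p = 0.0212), and it was the 1 gene of the 30 to do so in each, against 0.940% and 0.393% of all genes. At DIV3 the means were 2.51 and 4.48 TPM with SC siRNA and 2.35 and 6.20 with paxillin siRNA, and at DIV10 they were 23.6 and 20.2, and 21.8 and 28.96. None of these 4 differences passed with or without the block.

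**Figure D5:**
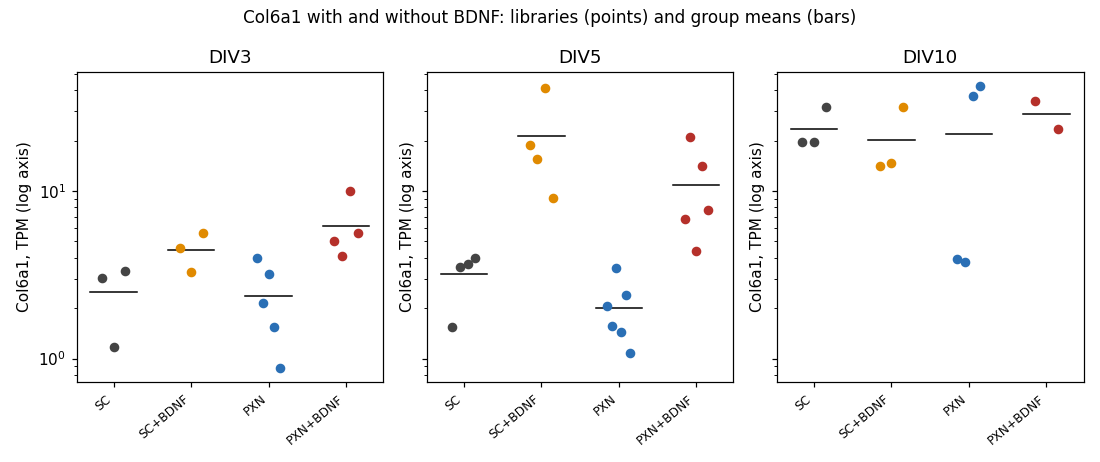
TPM of Col6a1 on a log axis in every library (points) with group means (bars), for SC and paxillin (PXN) siRNA with and without BDNF at DIV3, DIV5, and DIV10. At DIV5 the BDNF libraries start at 4.41 TPM, above the highest library without BDNF at 4.01, and at DIV10 the groups overlap.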

How the data were processed

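RNA of 48 libraries was measured, and groups and culture numbers were taken from the labels. The authors prepared mRNA libraries from total RNA, aligned reads to GRCm38.p6 with STAR 2.7.10, quantified genes with RSEM 1.3.3 (per the submitters' processing notes), and deposited TPM per gene, scaled to 1000000 per library, without pooling replicates. Depth is not recoverable from TPM. A second table of hippocampal transcript counts was not used here.

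From the deposited TPM, log2(TPM + 1) of 14250 genes whose mean reached 1 TPM was entered in 1 fit of 13 groups in limma 3.58.1 (R 4.3.3, eBayes with a trend), with Benjamini-Hochberg adjustment over all genes and a threshold of 0.05. Means, ranges, and promoter searches used Python 3.11.15 with pandas 2.3.3. The limma fit was tested on simulated data for 1 comparison, DIV3 to DIV10 with SC siRNA, with libraries drawn independently of each other. The block, the rescaling, and the promoter search were not part of that simulation. Named genes were the 4 collagens and 3 laminins of highest mean TPM, together with up to 4 genes per comparison past the threshold, the 2 that rose most and the 2 that fell most. The gene families and lists were chosen with earlier results of these data known.

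A block on culture number counts as paired where, with 3 or more pairs, every correlation of deviations of libraries of 1 number was above 0.1. This held for paxillin siRNA against SC siRNA at DIV5 without BDNF (0.244 to 0.488 over 4 pairs), for the same comparison at DIV3 (0.277 to 0.806), for DIV3 to DIV5 with paxillin siRNA (0.440 to 0.625), for DIV3 to DIV10 with SC siRNA and BDNF (0.301 to 0.540), and for BDNF at DIV3 and DIV5 with SC siRNA (0.289 to 0.563 and 0.511 to 0.787) and with paxillin siRNA (0.440 to 0.745 and 0.317 to 0.782). Alternatives were a pseudocount of 0.1, no filter, median ratio rescaling, no trend, only the groups compared, the block, leaving out cultures 10 and 11, a term for the series of library numbers, and leaving out each library. Another 2 were chosen after seeing the data, leaving out the 4 DIV10 libraries whose astrocyte sum was under 0.5 of the median of that day, and fitting only the series of library numbers that holds the SC siRNA libraries of DIV5 without BDNF. The series were inferred here from the numbers in the library names.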

Additional observations from a re-analysis of the deposited data

Results flagged for a closer look

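In groups of 4 to 6 libraries of 16 named genes, 112 groups were examined for a library far from the others, and 5 were found, while about 5.6 are found by chance at 1 in 20. Col1a1 in culture 2 of DIV5 with SC siRNA and BDNF stood at 30.9 TPM (others 2.76 to 5.24), and Col3a1 in the same library at 9.15 TPM. Col26a1 in culture 1 of DIV5 with paxillin siRNA and BDNF stood at 6.25 TPM. Col6a2 was lowest in culture 3 of DIV5 with SC siRNA, at 0.399 TPM without BDNF and 0.499 TPM with it. The cause was not tested.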

How the results depend on the processing

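Of 1358 values of called genes over all alternatives, 1170 kept direction and side of the threshold, 188 kept direction but missed the threshold, and 0 changed direction. The count of genes passing changed by over 1.5 times as follows, and the cause was not tested.

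Without the filter on low values, 9 passed from E15 to DIV3, 0 for paxillin siRNA at DIV5, and 1 for BDNF at DIV3 with paxillin siRNA. With only the groups compared, 9 passed from DIV3 to DIV10 with SC siRNA, 0 from DIV3 to DIV5 with SC siRNA, and 0 for paxillin siRNA at DIV5. For the last, a pseudocount of 0.1 left 1, rescaling 0, leaving out cultures 10 and 11 0, the term for series gave 7, and the paired block gave 10. Leaving out cultures 10 and 11 gave 3 from DIV3 to DIV5 with paxillin siRNA and 8 for paxillin siRNA at DIV10 without BDNF, where the term for series gave 7. With BDNF at DIV5 that term gave 1. Of the alternatives chosen after seeing the data, the series holding the DIV5 SC siRNA libraries without BDNF gave 0 for paxillin siRNA at DIV5. Leaving out the 4 DIV10 libraries that stood apart gave 1 for paxillin siRNA at DIV10 with BDNF.

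The block also gave 11 from DIV3 to DIV5 with paxillin siRNA and 1 for BDNF at DIV5 in each siRNA, where it paired the libraries. Where the libraries share only a number, the block gave 23 from DIV3 to DIV10 with paxillin siRNA and BDNF, 5 for paxillin siRNA at DIV10, and 6 at DIV5 with BDNF. It moved no other count by over 1.5 times.

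Leaving out 1 library gave 0 to 6 from E15 to DIV3, 12 to 15, 16 to 17, 13 to 16, and 7 to 16 from DIV3 to DIV10 (SC, paxillin, SC with BDNF, paxillin with BDNF), 3 to 13 and 5 to 7 from DIV3 to DIV5 (SC, paxillin), 0 to 9 for paxillin siRNA at DIV5, 0 to 3 at DIV10, and 0 to 3 at DIV5 with BDNF. It gave 0 in the comparisons not named here. DIV10 with paxillin siRNA and BDNF has no value without cultures 10 and 11, and E15 has no block. The depth behind each value is unknown.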
